A study of Mus musculus with 6 samples.

Results

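The genes described here are 32 markers of adipose stromal progenitor cells, chosen by name from 47069 genes counted in the inguinal subcutaneous white adipose tissue (SC-WAT) of 2-week-old female mice. RNA was sequenced from 3 Egr1+/+ (wild-type) and 3 Egr1-/- mice on the C57BL/6 background, with 1 library per mouse and no treatment. In the Egr1-/- line, LacZ was inserted in the 5′ untranslated region of Egr1, which encodes a zinc-finger transcription factor, and a frameshift lies upstream of its DNA-binding domain. The mutation is present in every cell of the mouse from conception, the mice came from heterozygous intercrosses of several litters with a single pair of littermates across the genotypes, and the RNA came from whole fat pads. The 32 genes were matched by Ensembl identifier to the GENCODE annotation of GRCm38, and 31 of them had enough counts to be tested.

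White adipose tissue keeps a stroma of fibroblast-like cells that carry the receptor PDGFRα and from which new adipocytes arise. Interstitial progenitors, which carry DPP4 and PI16, lie in the connective tissue sheath around the fat and give rise to committed preadipocytes, which carry ICAM1 and lie nearer to the adipocytes. A further population, marked by CD142 (the product of F3) and CLEC11A, has been described as restraining adipogenesis in its neighbours. All these cells share the surface proteins CD34 and SCA-1 (Ly6a) and a set of mesenchymal transcription factors. The comparison asked how the RNA of these genes differed between Egr1-/- and Egr1+/+ SC-WAT, and whether interstitial and committed genes differed alike.

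The start regions of the interstitial genes Dpp4 and Cd55 and of the committed gene Icam1 are shown because EGR1 binds DNA and its absence defines the groups. The window of Pi16, the other interstitial gene compared with Icam1 by name, overlaps annotated exons and is not printed. RefSeq promoter windows (GRCm38.p6) were available for 22 of the 32 genes, some with several start sites, giving 28 windows of 250 bases upstream of a start. The capitals mark TATA boxes (TATAAA) and GC boxes (GGGCGG), which were searched on both strands, so that a GC box on the other strand reads CCGCCC.
Dpp4, chr2:62412232-62412481, minus strand: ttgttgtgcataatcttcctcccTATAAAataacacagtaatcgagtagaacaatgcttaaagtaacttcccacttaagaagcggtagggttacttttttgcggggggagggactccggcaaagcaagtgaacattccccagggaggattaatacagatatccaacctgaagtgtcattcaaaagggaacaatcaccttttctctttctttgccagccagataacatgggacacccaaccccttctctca
Cd55, chr1:130462745-130462994, minus strand: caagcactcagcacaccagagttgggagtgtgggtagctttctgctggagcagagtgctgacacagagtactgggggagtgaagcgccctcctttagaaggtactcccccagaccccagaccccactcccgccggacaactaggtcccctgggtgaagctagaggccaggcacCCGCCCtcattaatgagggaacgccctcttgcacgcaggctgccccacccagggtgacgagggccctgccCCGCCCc
Icam1, chr9:21015690-21015939, plus strand: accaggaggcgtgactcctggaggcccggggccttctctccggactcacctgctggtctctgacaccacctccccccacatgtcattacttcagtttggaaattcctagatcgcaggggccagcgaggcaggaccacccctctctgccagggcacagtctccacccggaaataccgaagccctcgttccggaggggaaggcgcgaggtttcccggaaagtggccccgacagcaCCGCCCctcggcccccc

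The Icam1 window held 1 GC box, 17 to 12 bases upstream of the RefSeq start. That window ends at 21015939, short of the GENCODE start of Icam1 at 21015985, so the distance holds for the RefSeq start only. The Cd55 window held 2 GC boxes, at 77 to 72 and 7 to 2 bases upstream of the start. The Dpp4 window held no GC box and 1 TATA box, 227 to 222 bases upstream. Over the 28 windows, 15 held a GC box and 5 a TATA box, against 32.7% and 12.4% of all 32851 windows in the table. The EGR1 site was searched in 2 spellings, GCGTGGGCG and GCGGGGGCG, the latter of which can overlap a GC box. Either spelling was present in 3.06% of all windows and, of the 28 windows, in 1, that of Twist2, 116 to 108 bases upstream of its start. That window overlaps annotated exons, so the site is given alone with short flanks and is in capitals.
Twist2, chr1:91801337-91801361, plus strand: ggggggggGCGGGGGCGgccggcga

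The windows are a description of the letters near these starts and say nothing of binding elsewhere. Twist2, which encodes a basic helix-loop-helix factor of the mesenchyme, had nearly the same level in both genotypes.

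Levels are given as CPM, the counts of a gene per 1000000 counts of the library after trimmed-mean (TMM) scaling, and levels of different genes are compared only as CPM per kb of exon. Gene counts totalled 29661984 to 42357981 per mouse, and mitochondrial genes took 50.0% to 57.4% of them in Egr1+/+ and 54.9% to 66.3% in Egr1-/- mice, the highest share in Egr1-/- replicate 1. Egr1 itself had 10.3, 8.02 and 16.5 CPM in Egr1+/+ replicates 1 to 3 and 3.09, 2.71 and 1.84 CPM in Egr1-/- replicates 1 to 3, so every library matched its label. Over the 17667 genes tested, 3 (0.0170%) had a p under 0.05 in the quasi-likelihood test of edgeR after Benjamini-Hochberg correction. Egr1, the mutated gene, was not among them (log2 fold change -2.19, edgeR adjusted p = 0.0878).

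No member passed that threshold, and the adjusted p of the 31 members ran from 0.153 to 0.994. Lower levels in Egr1-/- SC-WAT were nevertheless frequent, with 29 of 31 members below their Egr1+/+ level and a median log2 fold change of -0.48, against 0.0011 over all genes tested. The values ran from -1.01 for Cd248 to 0.31 for Icam1, and Icam1 and Ackr3 were the 2 members with a higher mean in Egr1-/-. An unadjusted p under 0.05 was reached by 18 members with a lower level, while 5.60% of all genes reached it in that direction. It was reached by 1 member with a higher level, Icam1, against a background of 5.06%. In 16 members every Egr1-/- mouse lay below every Egr1+/+ mouse, against 8.10% of all genes, and in 1, again Icam1, every Egr1-/- mouse lay above, against 8.15%. With 3 mice against 3, an exact permutation test of a single gene cannot give a p below 0.1.

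DESeq2, another test of counts, placed 9 members past an adjusted p of 0.05, all lower in Egr1-/- mice (Cd34, Pi16, Anxa3, Sema3c, Prrx1, Serpinf1, Fap, Cd248 and Scara5), while it called 1.24% of its genes in that direction. The DESeq2 fit also included genes that the filter on low counts had removed from the edgeR fit. Its adjusted p nevertheless covered only the 16275 genes left by its own filtering, against 17667 in edgeR. Without the filter on low counts, edgeR placed 10 members past the threshold, with 0.808% of all genes called lower. The number of members past the threshold thus ran from 0 to 10 with the settings of the fit, and the parts of test and filter in it were not separated. Scaling by total counts alone moved the median over all genes to -0.15 and the share of lower genes among those with an unadjusted p under 0.05 from 52.5% to 89.2%. Against that shifted centre the median of the members was -0.65. In a whole fat pad, fewer progenitor cells and less RNA of these genes in each cell cannot be told apart.

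**Figure D1:**
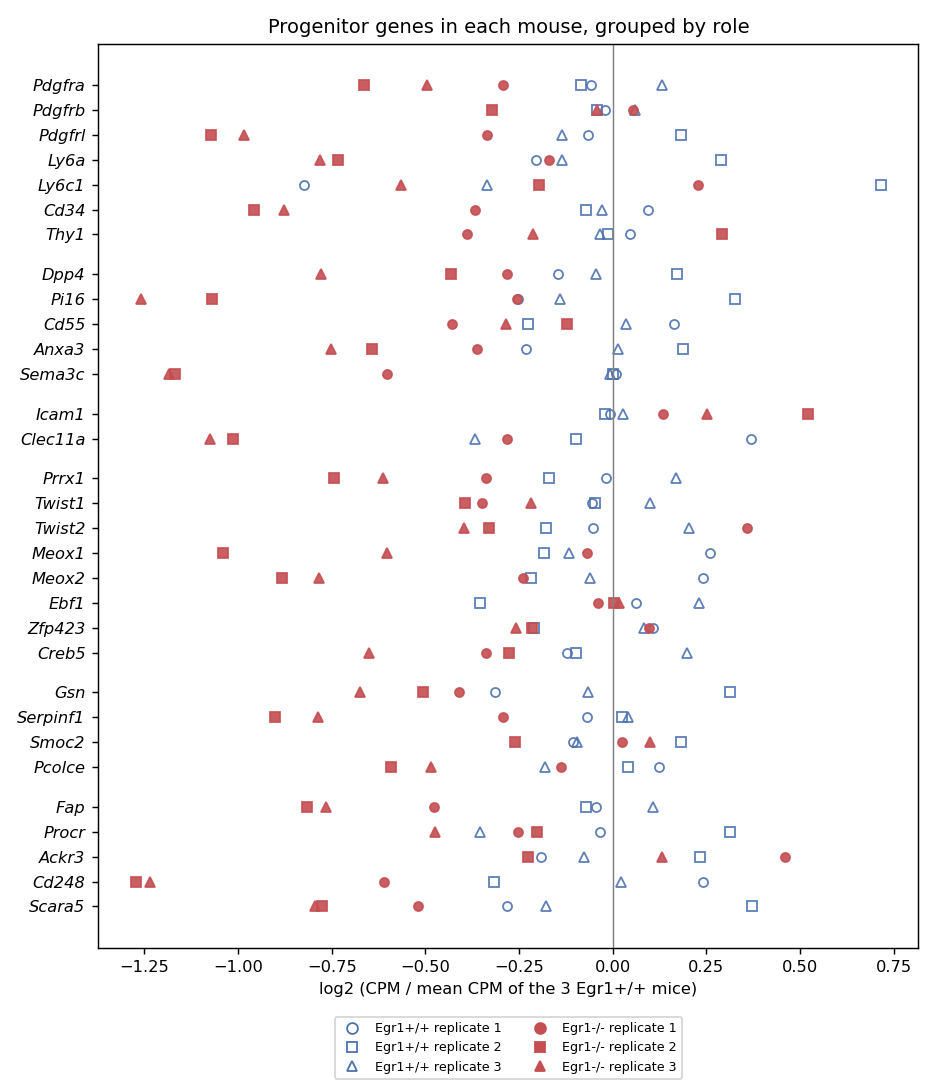
Log2 ratio of each gene's CPM in each mouse to the mean of the 3 Egr1+/+ mice (x axis), with 1 row for each of the 31 tested members, grouped by role from shared mesenchymal surface proteins (top) through interstitial, committed, transcription factor and secreted genes to other surface proteins (bottom). Open blue symbols are Egr1+/+ and filled red symbols Egr1-/- mice, and in 16 rows all 3 red symbols lie to the left of all 3 blue ones.

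The Egr1-/- mice were not equally far from the Egr1+/+ mice. The median over the 31 members of the log2 ratio to the Egr1+/+ mean was -0.28 in Egr1-/- replicate 1, -0.59 in replicate 2 and -0.61 in replicate 3. Replicate 1 lay below all Egr1+/+ mice in 18 members, replicate 2 in 25 and replicate 3 in 26, against 24.8%, 27.5% and 28.7% of all genes tested. Replicates 2 and 3 held the lowest of the 6 values in 14 and 12 members, and replicate 1 in 2. Replicate 1 was also the mouse with the largest mitochondrial share, and the part of that share in these values was not tested. Without it, 4 members passed the adjusted threshold of edgeR (Cd34, Sema3c, Serpinf1 and Cd248), all lower, while 0.236% of all genes were called in that direction. Leaving out Egr1-/- replicate 3 instead took the number of members with an unadjusted p under 0.05, in either direction, from 19 to 12, while that of all genes went from 1884 of 17667 to 1190 of 18666.

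All 5 interstitial genes had a lower mean in Egr1-/- SC-WAT, and their median log2 fold change was -0.58. Of these, 4 had an unadjusted p under 0.05, against 5.60% of all genes in that direction. In 4 the genotypes did not overlap, against 8.10% of all genes with every Egr1-/- mouse below. Dpp4 (chromosome 2, 62330073 to 62412231, minus strand), which encodes a membrane-bound dipeptidase and names the population, had 39.3, 48.9 and 42.1 CPM in Egr1+/+ replicates 1 to 3 and 35.8, 32.2 and 25.3 CPM in Egr1-/- replicates 1 to 3. All 3 Egr1-/- mice lay under the lowest Egr1+/+ mouse, and the log2 fold change was -0.48 ± 0.15 (SE; edgeR adjusted p = 0.30). Pi16 (chromosome 17, 29317680 to 29330593, plus strand), a secreted peptidase inhibitor, had 48.1, 71.9 and 52.1 CPM in Egr1+/+ and 48.0, 27.3 and 24.0 CPM in Egr1-/- mice. Egr1-/- replicate 1 all but touched Egr1+/+ replicate 1 while the other 2 Egr1-/- mice were far lower, and the log2 fold change was -0.79 ± 0.26 (adjusted p = 0.321). Without Egr1-/- replicate 1 it was -1.16.

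Sema3c (chromosome 5, 17574281 to 17730268, plus strand), a secreted semaphorin, set the genotypes furthest apart by p among the members. It had 113.6, 112.9 and 112.4 CPM in Egr1+/+ and 74.4, 50.3 and 49.7 CPM in Egr1-/- mice. The Egr1+/+ mice were nearly equal, the Egr1-/- mice all lay lower, and the log2 fold change was -0.96 ± 0.17 (edgeR adjusted p = 0.153). Anxa3, which encodes a calcium-dependent membrane-binding annexin, had 40.8, 54.5 and 48.3 CPM in Egr1+/+ and 37.2, 30.7 and 28.5 CPM in Egr1-/- mice. Its genotypes did not overlap either (log2 fold change -0.58 ± 0.15, adjusted p = 0.227). Cd55, a surface inhibitor of complement, was the interstitial gene with the smallest difference, with 69.9, 53.5 and 64.1 CPM in Egr1+/+ and 46.4, 57.4 and 51.3 CPM in Egr1-/- mice. The genotypes overlapped, since Egr1-/- replicate 2 lay above Egr1+/+ replicate 2 (log2 fold change -0.27 ± 0.14, adjusted p = 0.525). Of the 50-base stretches of Cd55 transcripts, 8% also occur in the neighbouring copy Cd55b, so part of its reads may not have been assigned.

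The 2 genes of the committed and CD142+ populations differed in opposite directions. Icam1 (chromosome 9, 21015985 to 21028817, plus strand), an adhesion protein that binds leukocyte integrins and is also made by endothelial and immune cells, had 12.08, 11.99 and 12.39 CPM in Egr1+/+ and 13.3, 17.4 and 14.5 CPM in Egr1-/- mice. All Egr1-/- mice lay above all Egr1+/+ mice, with a log2 fold change of 0.31 ± 0.13 (edgeR adjusted p = 0.451). The unadjusted p of Icam1 was over 0.05 with DESeq2, limma-voom, total counts (log2 fold change 0.18), the replicate block and no low-count filter. It was also over 0.05 in each of 5 fits without 1 mouse. It was under 0.05 with RLE or upper-quartile scaling, without mitochondrial genes, with a stricter filter and without Egr1-/- replicate 1. Lymphocyte markers summed to 73.1, 184.7 and 129.2 CPM in Egr1-/- replicates 1 to 3, the same order of mice as Icam1, and to 92.0 to 101.2 CPM in Egr1+/+ mice. Their part in the level of Icam1 was not tested. Clec11a, which encodes a secreted lectin-like growth factor, had 3.87, 2.80 and 2.32 CPM in Egr1+/+ and 2.46, 1.48 and 1.42 CPM in Egr1-/- mice. Egr1-/- replicates 2 and 3 were below all Egr1+/+ mice and replicate 1 was not (log2 fold change -0.74 ± 0.30, adjusted p = 0.432).

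Set against Icam1 within the same library, where no scaling between libraries enters, the interstitial genes were lower in every Egr1-/- mouse. The log2 ratio of Dpp4 to Icam1 counts was 1.70, 2.03 and 1.77 in Egr1+/+ and 1.42, 0.88 and 0.81 in Egr1-/- mice. That of Pi16 to Icam1 was 1.99, 2.58 and 2.07 in Egr1+/+ and 1.85, 0.65 and 0.73 in Egr1-/- mice. The means differed by -0.79 for Dpp4 and -1.14 for Pi16. The genotypes did not overlap in either ratio. This follows from the levels, in which Icam1 was higher and each of these genes lower in all Egr1-/- mice, so it adds no separate support. The ratios of Cd55, Anxa3 and Sema3c to Icam1 did not overlap either, with differences of -0.57, -0.88 and -1.29. For Anxa3 and Sema3c this again follows from the levels, while Cd55 alone overlapped. The share of all genes that separate against Icam1 was not computed. Pdgfra, which both populations express, also stood lower against Icam1, by -0.78 and without overlap, so that a lower ratio to Icam1 was not limited to interstitial genes.

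The mean log2 fold change of Dpp4 and Pi16 minus that of Icam1 was -0.95, and it lay between -1.27 and -0.78 under the other settings tried. These ratios share Icam1 as their denominator, and committed cells are represented by this single gene. They describe RNA in whole tissue and do not count cells of either population.

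**Figure D2:**
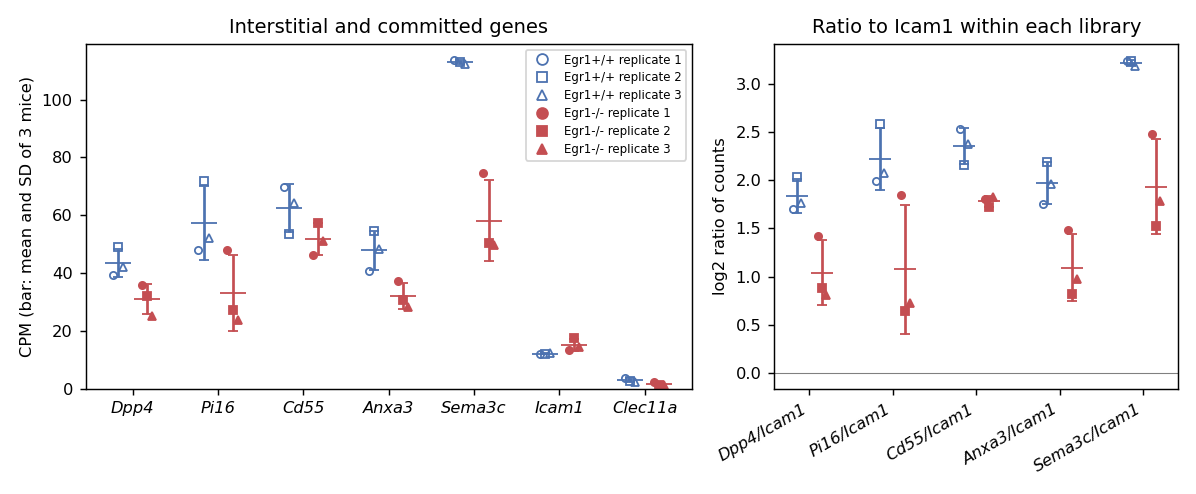
Left, CPM of the 5 interstitial genes and of Icam1 and Clec11a in each mouse; right, log2 ratio of the counts of each interstitial gene to those of Icam1 in the same library. Symbols are mice (open blue Egr1+/+, filled red Egr1-/-) and bars the mean and SD of 3 mice. The 3 red symbols lie below the blue ones in every ratio, with Egr1-/- replicate 1 the nearest of them for Dpp4, Pi16, Anxa3 and Sema3c.

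Among the 7 shared mesenchymal surface proteins and receptors all had a lower mean in Egr1-/- SC-WAT. Their median log2 fold change was -0.48, and 4 had an unadjusted p under 0.05, against 5.60% of all genes in that direction. Cd34 (chromosome 1, 194938819 to 194961279, plus strand), a sialomucin that endothelial cells also carry, had 178.7, 159.1 and 164.1 CPM in Egr1+/+ and 129.6, 86.1 and 91.0 CPM in Egr1-/- mice. The genotypes were separated by a wide gap (log2 fold change -0.71 ± 0.17, edgeR adjusted p = 0.204). Pdgfrl, which encodes a PDGF receptor-like protein, had the largest difference of the group at a low level, with 3.11, 3.70 and 2.97 CPM in Egr1+/+ and 2.58, 1.55 and 1.65 CPM in Egr1-/- mice. Its genotypes did not overlap (log2 fold change -0.75 ± 0.26, adjusted p = 0.332).

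The PDGF receptors themselves were unlike each other. Pdgfra, the receptor that marks the fibroblastic progenitors, had 93.2, 91.5 and 106.2 CPM in Egr1+/+ and 79.1, 61.2 and 68.8 CPM in Egr1-/- mice, without overlap (log2 fold change -0.48 ± 0.13, adjusted p = 0.250). Pdgfrb, which is also made by pericytes and smooth muscle, had 42.5 ± 1.6 CPM in Egr1+/+ and 39.8 ± 5.2 CPM in Egr1-/- mice (SD, n = 3), a difference smaller than the spread among the Egr1-/- mice. The difference between the 2 receptors was not tested.

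Ly6a, the gene of the stem cell antigen SCA-1, had a log2 fold change of -0.53 ± 0.20 (adjusted p = 0.376), with Egr1-/- replicate 1 (18.4 CPM) inside the Egr1+/+ range of 17.9 to 25.3 CPM. Ly6c1 was the least certain member, with 5.24 to 15.2 CPM in Egr1+/+ and 6.27 to 10.9 CPM in Egr1-/- mice, and its log2 fold change of -0.14 ± 0.36 turned to 0.0063 with limma-voom. Both belong to a family of near copies, since 19.0% of the 50-base stretches of Ly6a and 32.8% of those of Ly6c1 occur in another gene, so their counts are uncertain. Thy1, which fibroblasts and T cells share, had 17.7 to 18.7 CPM in Egr1+/+ and 13.8, 22.2 and 15.6 CPM in Egr1-/- replicates 1 to 3. The mouse with the highest Thy1, Egr1-/- replicate 2, was also the one with the highest sum of lymphocyte markers.

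Of the mesenchymal transcription factors all 8 tested had a negative log2 fold change, with a median of -0.37. Of these, 3 had an unadjusted p under 0.05, against 5.60% of all genes in that direction. In 4 the genotypes did not overlap, against 8.10% of all genes. Prrx1, a homeobox factor of limb and body wall mesenchyme, had the lowest p, with 65.2, 58.7 and 74.3 CPM in Egr1+/+ and 52.2, 39.4 and 43.2 CPM in Egr1-/- mice. No Egr1-/- mouse reached the lowest Egr1+/+ mouse (log2 fold change -0.56 ± 0.14, edgeR adjusted p = 0.227). The homeobox gene Meox2 had the largest difference, with 37.6, 27.3 and 30.5 CPM in Egr1+/+ and 26.9, 17.2 and 18.5 CPM in Egr1-/- mice. Its genotypes were separated by less than 1 CPM, between Egr1+/+ replicate 2 and Egr1-/- replicate 1 (log2 fold change -0.61 ± 0.19, adjusted p = 0.303).

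The related Meox1 had a log2 fold change of -0.51 ± 0.24 with overlapping genotypes. Creb5, a leucine zipper factor, and Twist1, the close relative of Twist2, had log2 fold changes of -0.41 ± 0.14 and -0.32 ± 0.15, both without overlap. Twist2, the gene with the EGR1 site printed above, had 2.50, 2.30 and 2.99 CPM in Egr1+/+ and 3.33, 2.07 and 1.97 CPM in Egr1-/- mice, a difference within the spread. Ebf1, a factor of adipogenesis and also of B cells, had 149.4 ± 29.8 CPM in Egr1+/+ and 148.8 ± 3.0 CPM in Egr1-/- mice, and Zfp423, a factor of preadipocyte commitment, 19.7 ± 2.3 and 18.2 ± 2.5 CPM. Ebf1 and Zfp423, both used to mark preadipocytes, thus differed by less than the spread between mice. The sign of the log2 fold change of Ebf1 (-0.0064) was positive without the filter on low counts, with limma-voom and with the replicate number in the model.

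Tcf21, a factor best known from visceral fat progenitors, was not tested. It had 2 counts in Egr1+/+ replicate 3, 2 counts in Egr1-/- replicate 1 and 0 counts in the other 4 mice, and 0 counts allow a level of up to 0.0873 to 0.0999 CPM in those libraries (3 counts, counting error only).

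The 4 secreted genes all had a lower mean in Egr1-/- SC-WAT. Their median log2 fold change was -0.46, and 3 had an unadjusted p under 0.05, against 5.60% of all genes in that direction. Serpinf1, which encodes the antiangiogenic protein PEDF, had both the lowest p and the largest difference, with 84.0, 89.7 and 90.7 CPM in Egr1+/+ and 72.01, 47.2 and 51.1 CPM in Egr1-/- mice. The Egr1-/- mice lay apart and below (log2 fold change -0.63 ± 0.16, edgeR adjusted p = 0.227). Gsn, the actin-severing protein gelsolin, which also exists as a secreted form, had a log2 fold change of -0.53 ± 0.18 without overlap, and Pcolce, which enhances the cleavage of procollagen, one of -0.39 ± 0.15 with overlap. Smoc2, a matrix-associated calcium-binding protein, had 9.83 ± 1.14 CPM in Egr1+/+ and 9.58 ± 1.22 CPM in Egr1-/- mice, a difference within the spread. Pcolce shares 112 exon bases with Fbxo24 on the same strand, which limits the precision of its counts.

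Of the 5 remaining surface proteins 4 had a lower mean, with a median log2 fold change of -0.68 over the 5. An unadjusted p under 0.05 was reached by 3 of the lower ones, against 5.60% of all genes in that direction. Cd248 (chromosome 19, 5068078 to 5070682, plus strand), which encodes endosialin, a glycoprotein of stromal fibroblasts and pericytes, had the largest difference of all members. It had 50.1, 34.0 and 43.0 CPM in Egr1+/+ and 27.7, 17.5 and 18.0 CPM in Egr1-/- mice, which did not overlap (log2 fold change -1.01 ± 0.21, edgeR adjusted p = 0.165). Fap, a cell-surface serine protease of fibroblasts, had the lowest p of the group, with 27.6, 27.1 and 30.7 CPM in Egr1+/+ and 20.4, 16.2 and 16.7 CPM in Egr1-/- mice. The gap between the genotypes exceeded the spread within either (log2 fold change -0.68 ± 0.13, edgeR adjusted p = 0.160). Fap and Dpp4 are related proteases whose genes lie close together on chromosome 2 on the same strand, Fap at 62500943 to 62574075.

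Scara5, a scavenger receptor that takes up ferritin, had a log2 fold change of -0.69 ± 0.18 without overlap, and Procr, the protein C receptor that endothelial cells also carry, one of -0.30 ± 0.20 with overlap. Ackr3, a receptor that removes the chemokine CXCL12, had 13.0 ± 2.0 CPM in Egr1+/+ and 14.4 ± 3.4 CPM in Egr1-/- mice, and its log2 fold change of 0.15 ± 0.19 became -0.022 with scaling by total counts.

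**Figure D3:**
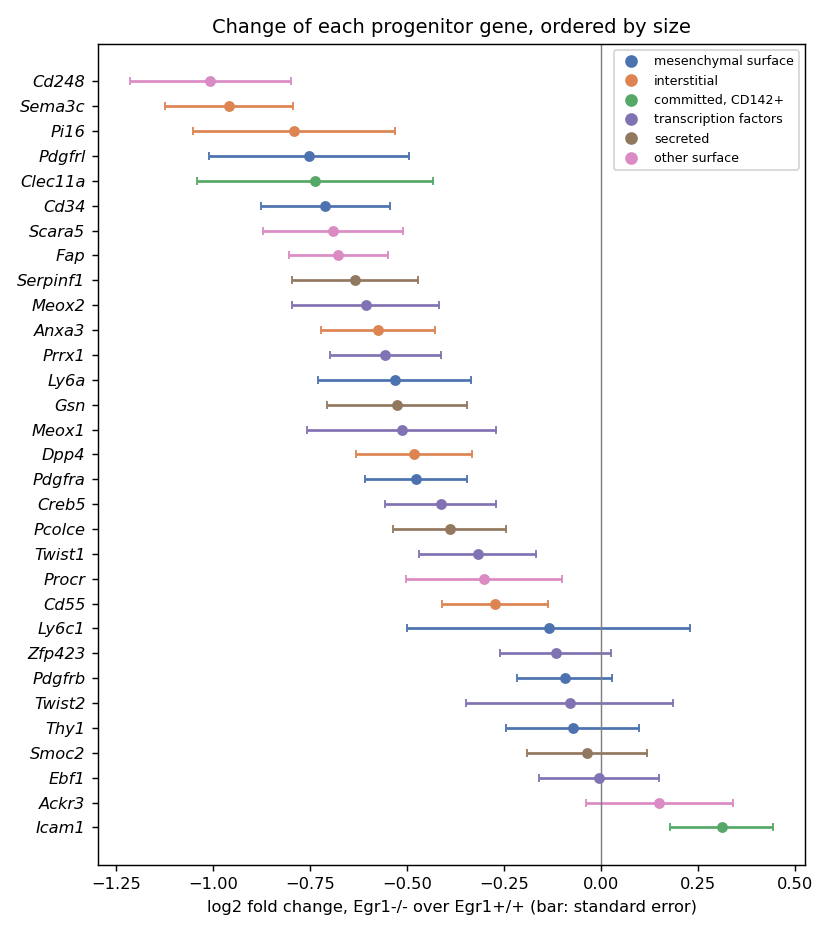
Log2 fold change of Egr1-/- over Egr1+/+ for the 31 tested members, ordered by size, with bars of 1 standard error and colours for the roles. Cd248 and Sema3c are at the lower end near -1, Icam1 and Ackr3 are the 2 members right of 0, and the 7 members from Ly6c1 to Ebf1 cross 0 within 1 standard error, as does Ackr3.

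Compared per kb of exon, the members spanned more than 2 orders of magnitude. In Egr1+/+ SC-WAT, Gsn was the highest at 337.5 ± 74.9 CPM per kb (SD, n = 3), followed by Serpinf1 at 37.4 ± 1.5 and Cd34 at 23.0 ± 1.4. Ly6a (17.2 ± 3.3), Cd248 (16.3 ± 3.1), Sema3c (15.8 ± 0.085) and Ebf1 (15.3 ± 3.1) followed and could not be ranked among themselves beyond their spread. Dpp4 at 6.88 ± 0.79 and Pi16 at 9.01 ± 2.00 were in the middle, and Icam1 at 2.79 ± 0.05 ranked 26 of 32. Twist2 was the lowest tested member at 0.82 ± 0.11 CPM per kb. In Egr1-/- SC-WAT, Cd248 (8.10 ± 2.21) and Sema3c (8.14 ± 1.98) ranked 11 and 10, Icam1 (3.46 ± 0.49) 20, and Ebf1 (15.2 ± 0.3) took rank 3.

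**Figure D4:**
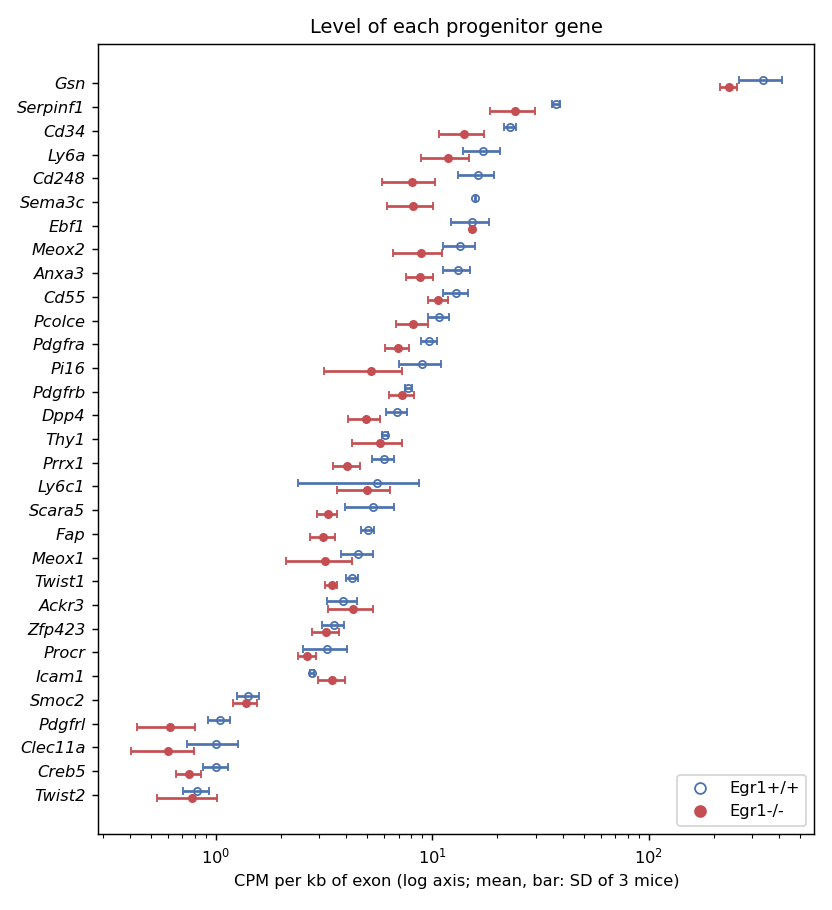
Level of the 31 tested members as CPM per kb of exon (log axis), ordered by the Egr1+/+ mean. Points are means and bars SDs of 3 mice (open blue Egr1+/+, filled red Egr1-/-), and most red points lie left of the blue ones, while those of Ebf1, Smoc2, Pdgfrb, Thy1 and Twist2 nearly coincide and those of Icam1 and Ackr3 lie to the right.

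Genes of the same populations outside the 32 were counted in the same way. Over all genes, 5.60% had an unadjusted p under 0.05 with a lower level in Egr1-/- and 5.06% with a higher one. Of 5 other interstitial genes all 5 had a lower mean, with log2 fold changes from -0.96 to -0.38, and 2 had an unadjusted p under 0.05. Wnt2, a secreted ligand, had 3.78, 4.63 and 4.64 CPM in Egr1+/+ and 2.61, 2.36 and 1.71 CPM in Egr1-/- mice, without overlap (log2 fold change -0.96 ± 0.22, edgeR adjusted p = 0.202), and Limch1 had a log2 fold change of -0.38 ± 0.15. Dact2 (-0.66), Smpd3 (-0.63) and Bmp7 (-0.42) had larger errors and overlapping genotypes.

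Of 8 other genes of committed preadipocytes, 6 had a lower and 2 a higher mean, with a median log2 fold change of -0.08. Only Apoe, the carrier of lipids, had an unadjusted p under 0.05 (log2 fold change -0.31 ± 0.13, adjusted p = 0.444). Pparg, the master regulator of adipogenesis, stood at -0.06, the lipid-handling genes Fabp4 at -0.20, Cd36 at -0.06, Lpl at -0.09 and Fabp5 at -0.34, and Dlk1 and Pdgfc at 0.23 and 0.03. Most of these genes are expressed by adipocytes as well, which the tissue holds in large number, so they do not isolate the preadipocytes.

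Of 5 other genes of CD142+ cells, F3 and Fmo2 had a higher mean (log2 fold changes 0.20 and 0.22), Gdf10, Vit and Mgp a lower one (-0.13, -0.06 and -0.69), and Mgp, an inhibitor of calcification, had an unadjusted p under 0.05. The PDGF ligands Pdgfa, Pdgfb and Pdgfd had log2 fold changes of -0.02, -0.22 and -0.11, none with an unadjusted p under 0.05. Of 9 other mesenchymal surface genes 7 had a lower mean, and the log2 fold changes of all 9 ran from -0.43 to 0.33. Mcam, which is also a mural gene, was the 1 with an unadjusted p under 0.05.

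Fibroblast matrix genes and marker genes of other cells in the fat pad differed between the genotypes to different extents. The matrix genes do not separate the fibroblast-like progenitors from other fibroblasts. Of 5 fibroblast matrix genes (collagens, Dcn and Lum), all 5 had a lower mean without overlap, against 8.10% of all genes. Their median log2 fold change was -0.62, and their sum was 4931 to 5942 CPM in Egr1+/+ and 3000 to 4091 CPM in Egr1-/- mice. The members summed to 2128 to 2564 CPM and 1522 to 1856 CPM. Gsn gave the largest part of this sum, with means of 1066 CPM in Egr1+/+ and 740 CPM in Egr1-/- mice. Macrophage markers had a lower mean in all 6 genes, with a median of -0.51. In 3 of the 6 the genotypes did not overlap, against 8.10% of all genes, and Csf1r, C1qa and C1qb overlapped. The 6 macrophage markers summed to 198.4 to 278.5 CPM in Egr1+/+ and 141.1 to 192.6 CPM in Egr1-/- mice. Schwann cell markers were lower in 4 of 5 genes, with sums of 235.4 to 335.6 and 161.8 to 208.3 CPM. The other Schwann gene, S100b, had a higher mean with overlap (log2 fold change 0.47 ± 0.29).

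The 8 endothelial markers, which do not include Cd34 and Procr, had a median of 0.01 on the log2 scale and a sum of 426.5 to 512.9 CPM in Egr1+/+ and 389.5 to 576.2 CPM in Egr1-/- mice. Mural markers were lower in 5 of 6 genes, with a median of -0.25 and overlapping sums of 424.9 to 630.1 and 361.6 to 561.9 CPM. None of these 5 had an unadjusted p under 0.05 in edgeR. The other mural gene, Cspg4, was higher without overlap and had one (log2 fold change 0.65 ± 0.17, edgeR adjusted p = 0.227). Lymphocyte markers were higher in all 8 genes, with a median of 0.50 and 0 genes without overlap. The adipocyte markers were split 3 to 3. Adipoq and Lep were lower without overlap (log2 fold changes -0.41 and -0.57), and Lipe was higher without overlap (0.36). The other adipocyte markers overlapped. Of all genes, 8.10% separated in the lower and 8.15% in the higher direction. The sum of the adipocyte markers was lower in all Egr1-/- mice, by a narrow gap and without a common direction of its genes. It was 2145 to 2229 CPM in Egr1+/+ and 1754 to 2116 CPM in Egr1-/- mice. In each of the 5 beige adipocyte markers every Egr1-/- mouse lay above every Egr1+/+ mouse, against 8.15% of all genes. Their sums were 487.8 to 637.1 CPM in Egr1+/+ and 880.3 to 1476 CPM in Egr1-/- mice. The study had already named these 5 genes as upregulated in the same libraries, so they give no separate support.

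Skeletal muscle markers varied between libraries of both genotypes, from 196.6 to 3321 CPM in Egr1+/+ and from 80.9 to 2398 CPM in Egr1-/- mice, with the highest sums in Egr1+/+ replicate 2 and Egr1-/- replicate 3. Mammary epithelial markers summed to at most 13.9 CPM, and Krt5, Krt14, Krt8 and Krt18 were at or under 3 counts in Egr1+/+ replicate 1. Mesothelial markers summed to at most 2.49 CPM, with Msln and Upk3b at 0 to 6 counts in every mouse but Egr1-/- replicate 1, which had 20 and 24. The part of these other cells in the levels of the progenitor genes was not tested.

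**Figure D5:**
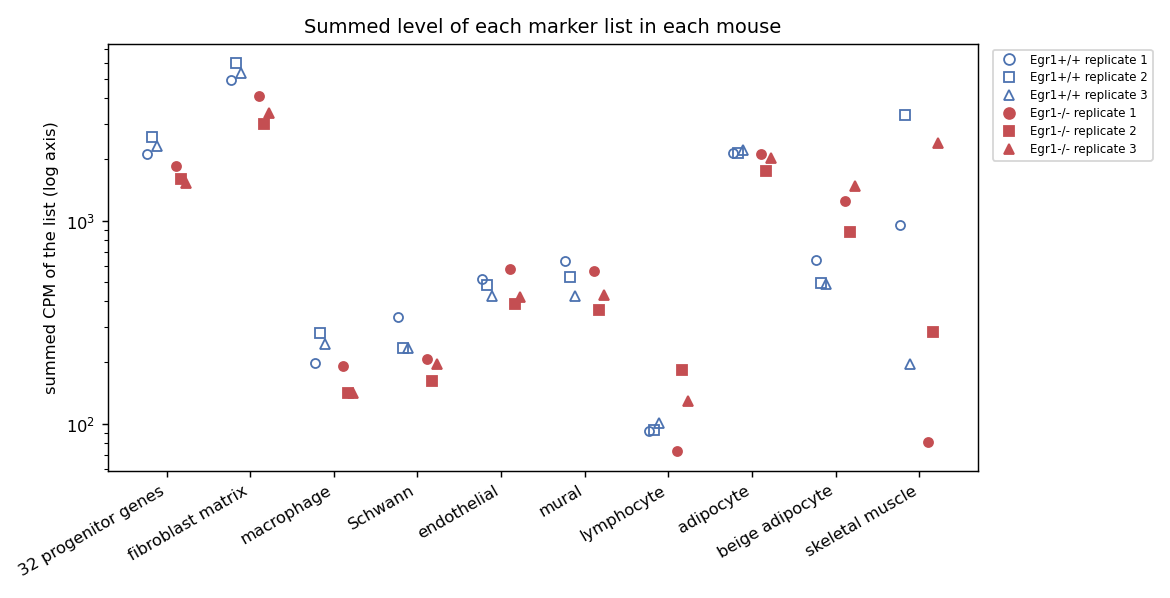
Summed CPM (log axis) of the 32 progenitor genes and of 9 other marker lists in each mouse. Open blue symbols are Egr1+/+ and filled red symbols Egr1-/- mice. Progenitor, fibroblast matrix, macrophage, Schwann and adipocyte sums are lower in all 3 Egr1-/- mice. Beige adipocyte sums are higher in all 3, and muscle sums vary most. Gsn gives the largest part of the progenitor sum, and the single adipocyte genes are split 3 to 3 in direction.

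Antisense genes overlap exons of Pdgfra, Cd34, Dpp4, Pi16, Cd55, Icam1, Twist2 and Pcolce. The libraries were strand-specific, but the strand setting of the counting is not given in the sources used here, so reads of these partners may be included. On the same strand, Anxa3 shares 112 exon bases with Gm42603, Creb5 164 with Gm25818 and Pdgfra 30 with Mir7025. As for Pcolce, this limits the precision of their counts.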

How the data were processed

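RNA of whole inguinal fat pads was depleted of ribosomal RNA, made into strand-specific libraries and sequenced, 1 library per mouse. Per the labels and the study's methods, the authors mapped the reads to GRCm38/mm10 with TopHat and Bowtie, assigned them to genes of the GENCODE release M8 with featureCounts and deposited raw counts per gene, without normalization. The sources differ on whether reads were single or paired. The strand and multimapping settings are not given in the sources used here. Depth was 29661984 to 42357981 counts per mouse, and intervals or floors cover counting error only.

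Identifiers were matched to GENCODE M21, which held 46574 of 47069. Counts were tested in R 4.3.3 with edgeR 4.0.16 (TMM, filterByExpr, quasi-likelihood test without covariate), with Benjamini-Hochberg adjustment over the 17667 genes tested and a threshold of 0.05. Standard errors were obtained as the absolute log2 fold change divided by the root of the F statistic. CPM per kb used the union of M21 exons. DESeq2 1.42.0, limma-voom (limma 3.58.1), RLE, upper-quartile and total-count scaling, removal of mitochondrial genes, no filter, a stricter filter (50 counts in 3 mice), the replicate number as a block and leaving out each mouse were alternatives.

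The 32 genes and the lists of other genes were chosen with earlier results of these data known. All 32 are given, those of the interstitial and committed groups in every mouse, and of each other role those with the lowest p and the largest difference. Pdgfra, Thy1 and others given in every mouse beyond that rule were chosen after their values were seen. Motifs were searched in the 250 bases upstream of RefSeq starts, and only windows free of annotated exons are printed whole.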

Additional observations from a re-analysis of the deposited data

How the results depend on the processing

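The median log2 fold change of the members stayed between -0.65 (total counts) and -0.39 (without Egr1+/+ replicate 2), and the mean of Dpp4 and Pi16 minus Icam1 between -1.27 and -0.78 under every alternative run. The number of calls moved with the scaling, the filter, the tool and the mice included. Against 3 genes in edgeR's test, 0 passed with upper-quartile scaling, 0 with the stricter filter, 1 with limma-voom, 79 with total counts, 334 with DESeq2, which was fitted without that filter, and 552 in edgeR without a filter, and 0 to 59 with 1 mouse left out. Members past the threshold numbered 0 in edgeR, 2 with total counts, 9 with DESeq2, 10 without a filter, and 0 to 4 with 1 mouse left out. Members with an unadjusted p under 0.05 numbered 19 under each alternative that kept all mice and 12 to 20 with 1 mouse left out. The number of members with a negative log2 fold change, counted under the alternatives after the data had been seen, was 27 to 30 with all mice and 26 to 28 with 1 left out. The cause of these differences was not tested. The replicate numbers did not pair the mice (correlations of deviations -0.089, 0.106 and -0.126), and with the replicate block 0 genes passed, with 19 members at an unadjusted p under 0.05. The sign turned for Ly6c1 with limma-voom (0.0063), for Ebf1 without a filter (0.0039), with limma-voom (0.016) and with the block (0.013), and for Ackr3 with total counts (-0.022). With 1 mouse left out, values ran from -0.17 to 0.011 for Pdgfrb, -0.43 to 0.42 for Ly6c1, -0.29 to 0.063 for Thy1, -0.36 to 0.055 for Twist2, -0.15 to 0.12 for Ebf1, -0.11 to 0.068 for Smoc2 and -0.034 to 0.31 for Ackr3.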
